A study of Mus musculus with 6 samples.

Results

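The 10 genes described here encode subunits of the SWI/SNF chromatin remodelling complexes, and they were taken by gene name from a table of 54532 genes measured by RNA-seq in mouse LSK cells. LSKs are the lineage-negative, Sca1-positive and c-Kit-positive fraction of bone marrow (BM) that holds hematopoietic stem and progenitor cells (HSPCs). The members are the ATPases *Smarca4* and *Smarca2*, the core subunits *Smarcb1*, *Smarcc1*, *Smarcd1* and *Smarcd2*, the BAF subunits *Arid1a* and *Arid1b*, and the PBAF subunits *Arid2* and *Pbrm1*. Control LSKs (CTRL, 3 libraries) came from *Myh9*fl/fl mice without cre, and *Myh9*-deficient LSKs (cKO, 3 libraries) from their *Myh9*fl/fl;*Mx1-cre* littermates, all on the C57BL/6 background. Both groups carried the floxed allele and both received poly I:C, at 5 mg/kg, in 2 doses by the sample descriptions and 3 by the general methods of the study. The *Mx1* promoter responds to interferon, which poly I:C induces, and drives cre in other tissues as well as in blood cells, while the control mice had no cre at all. Mice were genotyped at 4 to 5 weeks of age, and 100000 LSKs were sorted 4 days after the first injection. Whether a library came from 1 mouse or from several is not given in the sources used here, so p-values measure the spread between these libraries.

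SWI/SNF complexes use the energy of ATP to slide or evict nucleosomes, which opens or closes DNA to transcription factors. Each complex holds a single ATPase, either BRG1 (*Smarca4*) or BRM (*Smarca2*), on a shared core. ARID1A or ARID1B defines the BAF form, ARID2 and PBRM1 define the PBAF form, and the smaller ncBAF form has none of these 4 subunits. In blood formation, BRG1 is known for its role in red cell development, ARID1A for its role in the differentiation of HSPCs and SMARCD2 for its role in neutrophil maturation.

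Several members are paralog pairs whose reads could be confused in principle, so stretches of the 2 pairs with the largest differences are shown first, to let their likeness be read directly. For the ATPase genes, these are the 120 coding bases centred on the loop that binds ATP, from GENCODE M21 transcripts on GRCm38 (mm10). They lie in exon 16 of 34 of *Smarca4* (chr9:21660723-21660842, plus strand) and in exon 15 of 34 of *Smarca2* (chr19:26676649-26676768, plus strand). Capitals mark the bases that differ between the paralogs.
Smarca4: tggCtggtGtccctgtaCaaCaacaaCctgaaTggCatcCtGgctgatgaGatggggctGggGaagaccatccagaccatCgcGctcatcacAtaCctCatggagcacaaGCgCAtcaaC
Smarca2: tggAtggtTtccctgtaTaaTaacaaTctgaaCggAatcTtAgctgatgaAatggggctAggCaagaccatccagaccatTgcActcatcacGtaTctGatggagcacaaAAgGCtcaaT
The ATPase stretches differ at 22 bases (81.7% identical), yet only 2 of the 40 codons encode another residue.

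For *Arid1a* and *Arid1b* the stretch lies in the ARID, the DNA-binding domain after which both genes are named. It holds the 120 coding bases of the 40 residues, aligned without a gap, with the most matches between the proteins. Matching bases were used to break ties. It is spliced from exons 11 and 12 of 20 in *Arid1a* (chr4:133689169-133691096, minus strand) and from exons 12 and 13 of 20 in *Arid1b* (chr17:5318824-5321365, plus strand).
Arid1a: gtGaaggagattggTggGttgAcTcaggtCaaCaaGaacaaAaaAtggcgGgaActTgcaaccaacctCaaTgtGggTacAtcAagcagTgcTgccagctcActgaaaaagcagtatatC
Arid1b: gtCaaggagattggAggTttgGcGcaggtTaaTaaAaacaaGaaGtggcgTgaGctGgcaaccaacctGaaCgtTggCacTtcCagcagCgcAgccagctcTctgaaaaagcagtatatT
This pair differs at 23 bases here (80.8% identical), and 1 of the 40 codons encodes another residue. Even these stretches break up into short shared runs. Over whole transcripts, the longest run of identical bases was 20 for *Smarca4* and *Smarca2*, 26 for *Arid1a* and *Arid1b*, and 18 for *Smarcd2* and *Smarcd1*, so 0% of windows of 50 bases were shared by any of these pairs. Across aligned residues, the proteins encoded by *Smarca4* and *Smarca2* were 78.6% identical, those of *Smarcd2* and *Smarcd1* 68.7%, and those of *Arid1a* and *Arid1b* 59.5%.

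Levels are given as FPKM, fragments per kilobase of gene scaled to library size, as deposited by the authors. Each library held 17571544 to 19894562 reads on genes, and a member gene had from 575 (*Smarcd1*) to 4911 (*Smarcd2*) of these in a library. Across genes, libraries of the same group correlated at 0.991 to 0.993 and libraries of different groups at 0.974 to 0.977. *Myh9*, the targeted gene, had 23.0, 22.6 and 22.0 FPKM in control LSKs and 18.4, 19.96 and 17.7 in *Myh9*-deficient LSKs. It fell by 17.1% (adjusted p = 0.00642, log2 fold change -0.26, limma), and after the trends of each library with base composition (GC content) and gene length were taken out the value was -0.12 and the call was lost (adjusted p = 0.0562). This value is a sum over the whole gene and does not show the floxed exon by itself. The LSK marker *Kit* fell (log2 fold change -0.14, adjusted p = 0.0105, limma), *Flt3* (0.58, adjusted p = 1.47e-04), *Hlf* (0.38, adjusted p = 0.0125) and *Gata2* (0.18, adjusted p = 0.00214) rose, and the other 4 of the 8 LSK markers tested did not pass. The summed FPKM of the 9 LSK markers in control libraries was 374.5 to 382, against 382.2 to 408.9 in the other group. Markers of other cells moved between the groups. Summed FPKM of 8 erythroid markers was 435.5 to 439.8 in control and 774.3 to 801.1 in *Myh9*-deficient LSKs (8 of 8 higher), that of 5 megakaryocyte markers 63.4 to 67.8 and 134.8 to 141.6 (4 of 4 tested higher, *Gp1bb* at 0 in every library), and that of 4 mast cell and basophil markers 76.0 to 88.2 and 133 to 140.8 (4 of 4 higher). The sum of the 8 neutrophil and monocyte markers fell from 6633 to 6687 in control to 3457 to 3523 (5 of 6 tested lower). *Mpo* and *Elane* (control means 3331 and 3096 FPKM) made up most of this sum, and *S100a8* did not pass (adjusted p = 0.885, limma). The sum of the 5 B and plasma cell markers went from 33.9 to 34.9 in control to 64.2 to 71.3 (2 higher and 1 lower of 3 tested). That of the 6 T and NK cell markers, all below the filter on low values, went from 0.992 to 1.82 in control to 3.90 to 4.59. The part of this shift in the results below was not tested, and in bulk RNA fewer cells of a type and less RNA per cell cannot be told apart.

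All 10 members were above the filter of a mean of at least 1 FPKM and were tested with limma on log2(FPKM + 1), which is the scale of every log2 fold change here. All 10 had lower means in *Myh9*-deficient LSKs, and 5 fell at an adjusted p under 0.05: *Arid1b*, *Arid1a*, *Smarca2*, *Smarca4* and *Smarcd2*. None rose. The same threshold called 20.6% of the 11552 genes tested lower and 19.9% higher. Of all genes tested, 51.7% had a log2 fold change below 0. By gene length this share was 60.9% from 4000 to 8000 bases and 73.8% from 8000 bases upward, where most members lie. For 6 of the 10 members every *Myh9*-deficient library was below every control library, as for 28.5% of all genes tested. The members' median log2 fold change was -0.15, ranging from -0.44 to -0.088, while the median over all genes tested was -0.0096. No member changed more than 2-fold, which with an unadjusted p under 0.05 held for 2.13% of genes. Summed over the members, FPKM was 166.8, 167.8 and 160.2 in control libraries and 144.6, 149.2 and 146.8 in *Myh9*-deficient libraries.

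**Figure D1:**
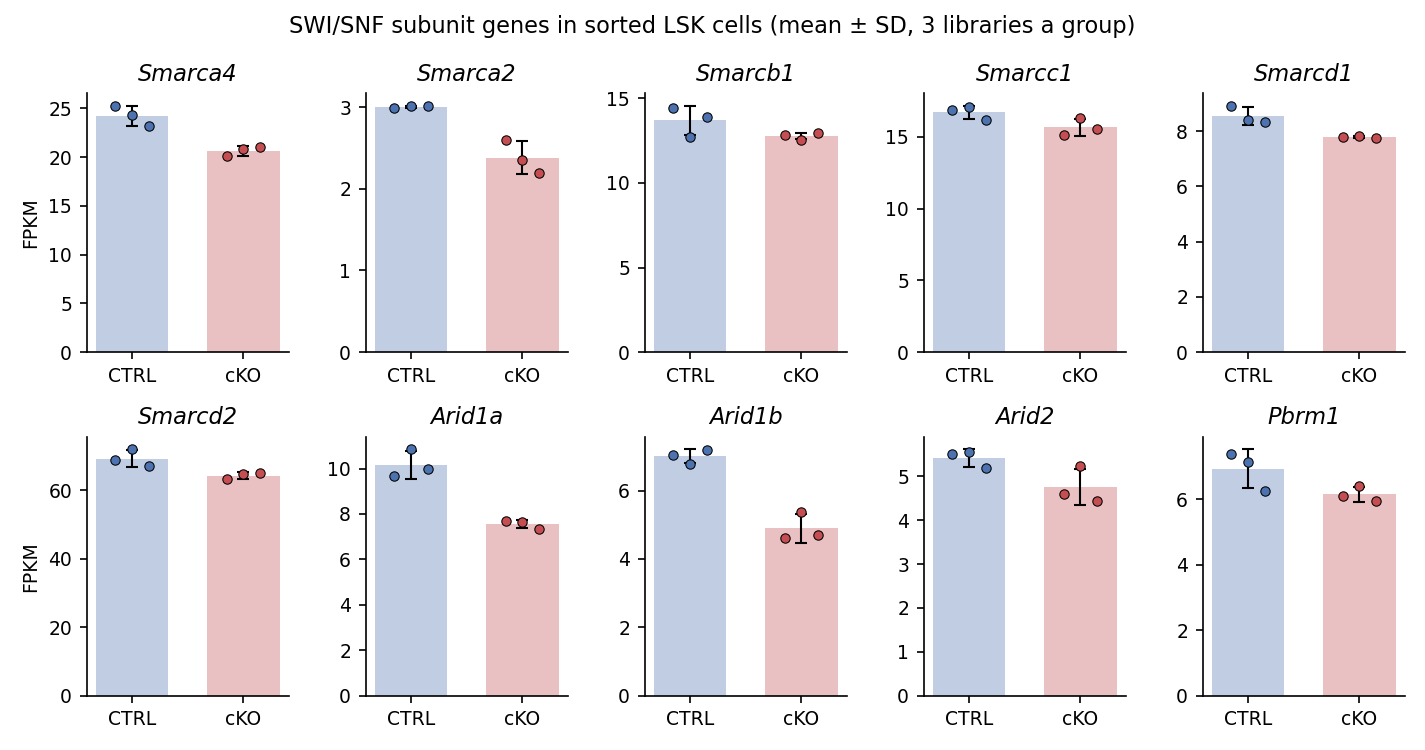
FPKM (vertical axes, each from 0) of the 10 member genes in the 3 CTRL and 3 cKO libraries; points are libraries, bars the mean and error bars the SD. *Arid1b* and *Arid1a* show the widest gaps between groups relative to their level, from 7.0 to 4.89 and from 10.2 to 7.56 FPKM, while the points of *Smarcb1*, *Smarcc1*, *Arid2* and *Pbrm1* overlap.

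The BAF-defining ARID genes changed most among the members. *Arid1b* (ENSMUSG00000069729, chromosome 17 from 4994332 to 5347656) had 7.03, 6.78 and 7.19 FPKM in control LSKs and 4.60, 5.38 and 4.69 in *Myh9*-deficient LSKs. The lowest control library thus stood well above the highest *Myh9*-deficient library. The mean fell by 30.2%, from 7.0 ± 0.204 to 4.89 ± 0.431 (SD, n = 3 each; log2 fold change -0.44, SE 0.062, adjusted p = 0.00193, limma). *Arid1a* (ENSMUSG00000007880, chromosome 4 from 133679008 to 133756769), the gene of the ARID1 pair with the higher FPKM here, had 9.66, 10.8 and 9.97 FPKM in control and 7.70, 7.63 and 7.36 in *Myh9*-deficient LSKs. These groups were also apart, with a fall by 25.6% from 10.2 ± 0.615 to 7.56 ± 0.182 (log2 fold change -0.38, SE 0.050, adjusted p = 0.00159). Both genes passed the threshold in each of 18 alternative fits. After GC and length trends were taken out, *Arid1b* stood at -0.32 (adjusted p = 0.00619) and *Arid1a* at -0.24 (adjusted p = 0.00847).

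The PBAF-defining genes had smaller differences that did not pass. *Arid2* (ENSMUSG00000033237, chromosome 15 from 96287518 to 96404992), which takes the place of ARID1 in PBAF, had 5.51, 5.54 and 5.18 FPKM in control and 4.60, 5.23 and 4.43 in *Myh9*-deficient LSKs. Only cKO replicate 2 reached into the control range. The log2 fold change was -0.16 (95% interval -0.31 to -0.0052, adjusted p = 0.0927, limma). The adjusted p was 0.0283 without cKO replicate 2, and 0.11 to 0.226 with any other library left out. *Pbrm1* (ENSMUSG00000042323, chromosome 14 from 31019138 to 31121592), which encodes the subunit of PBAF with an array of bromodomains, had 7.39, 7.13 and 6.25 FPKM in control and 6.09, 6.39 and 5.95 in *Myh9*-deficient LSKs. CTRL replicate 3 was the low control library and lay within the range of the other group. The log2 fold change was -0.15 (95% interval -0.30 to 0.0068, adjusted p = 0.114, limma). The adjusted p was 0.0291 without CTRL replicate 3, and 0.125 to 0.293 with any other library left out.

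Both ATPase genes fell. *Smarca4* (ENSMUSG00000032187, chromosome 9 from 21616169 to 21704230) had 25.2, 24.3 and 23.2 FPKM in control and 20.1, 20.8 and 21.01 in *Myh9*-deficient LSKs, so the groups were separate. Its mean fell by 14.9%, from 24.3 ± 1.02 to 20.6 ± 0.481 (log2 fold change -0.22, SE 0.040, adjusted p = 0.00541, limma). The call held with each library left out in turn (adjusted p from 0.00711 to 0.0215), and the value was -0.12 (adjusted p = 0.0529) after GC and length trends were taken out. *Smarca2* (ENSMUSG00000024921, chromosome 19 from 26605050 to 26778322), the least abundant member per length, had 2.99, 3.01 and 3.01 FPKM in control and 2.59, 2.36 and 2.19 in *Myh9*-deficient LSKs. The control libraries were nearly equal and all lay above the other group. The mean fell by 20.8%, from 3.003 ± 0.0122 to 2.38 ± 0.204 (log2 fold change -0.25, SE 0.063, adjusted p = 0.0213). This call was less stable than that of *Smarca4*: among fits with 1 library left out it held without cKO replicate 1 (adjusted p = 0.0199), and missed the threshold without cKO replicate 2 (0.0532), cKO replicate 3 (0.0578) or CTRL replicate 1 (0.0602), 2 (0.0618) or 3 (0.0582). After GC and length trends were taken out it was -0.14 (adjusted p = 0.133).

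Of the core genes, *Smarcd2* passed the threshold. *Smarcd2* (ENSMUSG00000078619, chromosome 11 from 106263179 to 106272972), the most abundant member, had 68.8, 71.95 and 67.0 FPKM in control and 63.2, 64.8 and 65.0 in *Myh9*-deficient LSKs. The groups did not overlap, and the mean fell by 7.15%, from 69.2 ± 2.51 to 64.3 ± 0.984 (log2 fold change -0.10, SE 0.033, adjusted p = 0.0433, limma). The call was made in 6 of 18 alternatives. Among fits with 1 library left out it held without CTRL replicate 3 (adjusted p = 0.0340), and it missed the threshold without CTRL replicate 1 (0.0942) or 2 (0.118) or cKO replicate 1 (0.1199), 2 (0.0750) or 3 (0.0784). Its paralog *Smarcd1* (ENSMUSG00000023018, chromosome 15 from 99702129 to 99713991) had 8.92, 8.41 and 8.33 FPKM in control and 7.80, 7.83 and 7.75 in *Myh9*-deficient LSKs. The groups were separate and the log2 fold change was -0.12 (95% interval -0.21 to -0.023), with an adjusted p of 0.0535, just above the threshold of 0.05.

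*Smarcc1* encodes a scaffold of the core and *Smarcb1* a core subunit that contacts the nucleosome, and neither gene passed. *Smarcb1* (ENSMUSG00000000902, chromosome 10 from 75896769 to 75921617) had 14.4, 12.7 and 13.9 FPKM in control and 12.8, 12.5 and 12.9 in *Myh9*-deficient LSKs. CTRL replicate 2 lay among the *Myh9*-deficient libraries. With all libraries the log2 fold change was -0.093 (95% interval -0.21 to 0.025, adjusted p = 0.180, limma). The adjusted p was 0.0481 without CTRL replicate 2, and 0.238 to 0.43 with any other library left out. *Smarcc1* (ENSMUSG00000032481, chromosome 9 from 110117708 to 110240178) had 16.9, 17.0 and 16.2 FPKM in control and 15.1, 16.3 and 15.6 in *Myh9*-deficient LSKs, with cKO replicate 2 inside the control range. Its log2 fold change was -0.088 (95% interval -0.18 to 0.0070, adjusted p = 0.124). Kits of the type used do not mark strand, and 1.57% of the *Smarcc1* exon bases are shared with *Dhx30* on the opposite strand (mean 7.70 FPKM), and 7.13% of those of *Smarcd1* with *Gm17349* (mean 0.030 FPKM).

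The order of the members by level was nearly the same in both groups. In control LSKs it ran from *Smarcd2* through *Smarca4*, *Smarcc1*, *Smarcb1*, *Arid1a*, *Smarcd1*, *Arid1b*, *Pbrm1* and *Arid2* to *Smarca2*, and of neighbours in this order the libraries of *Arid1b* and *Pbrm1* overlapped. In *Myh9*-deficient LSKs *Arid1a* came below *Smarcd1*, and *Arid1b* below *Pbrm1*, where its libraries overlapped with those of *Arid2*. This order depends on the length each gene is divided by. For each of the 10 members, the authors' length equals all annotated exon bases of the gene joined together. For *Smarcb1* this is 7930 bases, while its longest coding transcript has 1660 bases, and by the latter length its control mean would be 65.4 in place of 13.7 FPKM, next to *Smarcd2* (90.5). By the same measure *Smarca2* would have 7.31 in place of 3.003 FPKM in control LSKs, above *Arid2* (6.83). The change of length is the same in all libraries and leaves ratios between groups as they are.

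Because paralogs occupy the same place in a complex, their shares were compared within each library. *Smarca2* made up 10.6%, 11.0% and 11.5% of the summed FPKM of both ATPase genes in control LSKs and 11.4%, 10.2% and 9.43% in *Myh9*-deficient LSKs. The groups overlapped, and the means differed by -0.69 percentage points (exact permutation p = 0.3, two-sided, where 0.1 is the smallest p that 3 libraries against 3 can give). *Arid1b* made up 42.1%, 38.5% and 41.9% of the ARID1 pair in control LSKs and 37.4%, 41.4% and 38.9% in *Myh9*-deficient LSKs, a difference of -1.60 points (exact permutation p = 0.3). *Smarcd1* made up 11.0% ± 0.505 and 10.8% ± 0.163 of its pair (exact permutation p = 0.6). With longest coding transcripts as lengths, chosen after the values were seen, the *Smarca2* share was 22.9% and 21.6% and the *Arid1b* share 45.9% and 44.2%. With a smallest possible p of 0.1, these tests could not have called a shift in any of the 3 pairs.

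A further pair of shares was computed after the values were seen and is given as a description. *Arid2* made up 24.8%, 23.9% and 23.2% of the summed FPKM of *Arid1a*, *Arid1b* and *Arid2* in control LSKs and 27.2%, 28.7% and 26.9% in *Myh9*-deficient LSKs, 3.62 points more (exact permutation p = 0.1, the smallest possible). All *Myh9*-deficient libraries were above all control libraries. *Smarcc2* made up 57.6%, 57.8% and 59.5% of the summed FPKM of *Smarcc1* and *Smarcc2* in control LSKs and 54.6%, 53.5% and 54.7% in *Myh9*-deficient LSKs, a difference of -4.05 points (exact permutation p = 0.1).

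**Figure D2:**
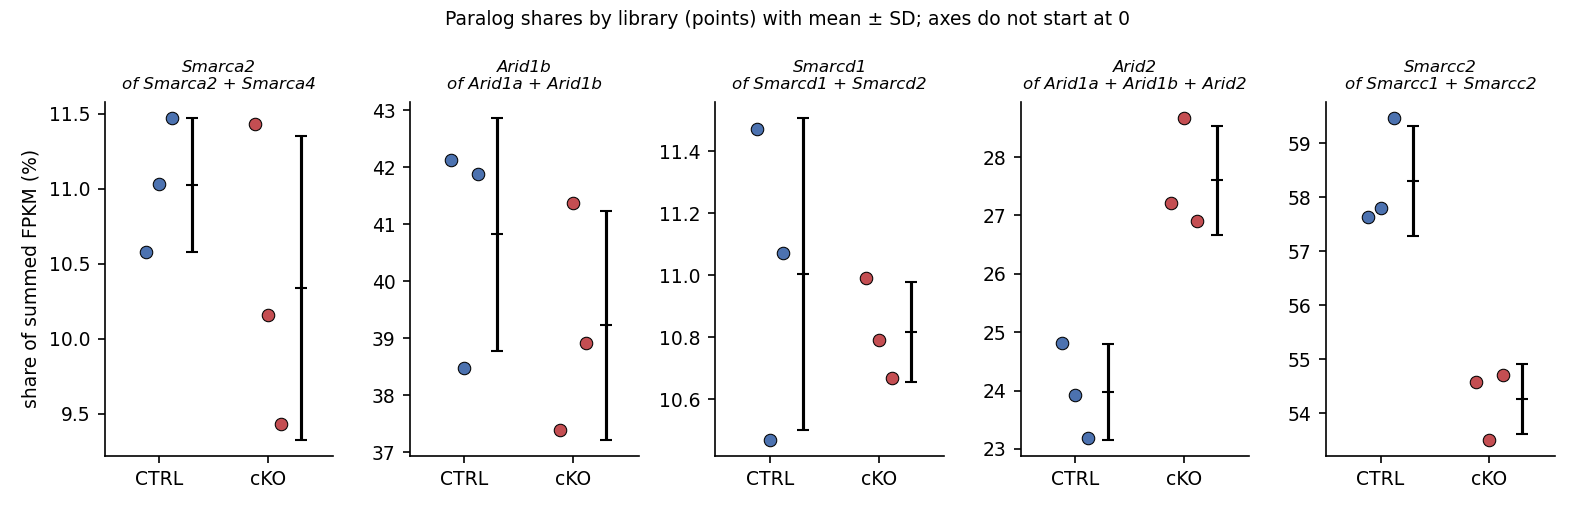
Share of summed FPKM (%) of 1 paralog in its group, by library (points) with the mean and SD; the vertical axes do not start at 0. The groups overlap for *Smarca2*, *Arid1b* and *Smarcd1*, and are apart for *Arid2* (24.0% and 27.6% on average) and *Smarcc2* (58.3% and 54.3%).

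Beside the members, 21 further SWI/SNF subunit genes were listed, of which 15 were above the filter. Of the 15, 4 fell and 1 rose, where 20.6% of all genes tested were called lower and 19.9% higher, so the count of falls was near the background. Their median log2 fold change was -0.0078. *Smarcc2*, the paralog of the core subunit *Smarcc1*, had 22.9, 23.4 and 23.7 FPKM in control and 18.1, 18.7 and 18.8 in *Myh9*-deficient LSKs (adjusted p = 4.73e-04, log2 fold change -0.32, limma). *Bicral*, an ncBAF subunit, fell from 3.58 ± 0.329 to 2.34 ± 0.290 FPKM (-0.46, adjusted p = 0.00712). *Ss18*, a BAF subunit, fell from 23.3 ± 0.817 to 20.6 ± 0.375 FPKM (-0.17, adjusted p = 0.0104), and these 3 genes passed in each alternative fit in which they were tested. *Bcl7a*, which encodes a small accessory subunit, fell from 4.80 ± 0.315 to 3.87 ± 0.3497 FPKM (-0.25, adjusted p = 0.0299), but passed in 7 of 17 alternatives. With 1 library left out it passed without cKO replicate 2 (0.0306), and it missed without CTRL replicate 1 (0.0933), 2 (0.0529) or 3 (0.0595) or cKO replicate 1 (0.0739) or 3 (0.0600).

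The gene that rose was *Phf10*, a PBAF subunit with PHD fingers, with 11.2, 12.5 and 12.4 FPKM in control and 13.4, 14.4 and 14.6 in *Myh9*-deficient LSKs. The groups were separate (log2 fold change 0.22, adjusted p = 0.0183, limma), but the call was lost on leaving out cKO replicate 2 (adjusted p = 0.0521) or 3 (0.0587). Of its exon bases, 9.57% are shared with *1600012H06Rik* on the opposite strand (mean 5.35 FPKM). The other PBAF subunit, *Brd7*, did not pass (adjusted p = 0.154, log2 fold change -0.096). *Actl6a*, an actin-related subunit, had non-overlapping groups with means of 27.8 and 29.9 FPKM (0.10, adjusted p = 0.109, limma). It shares 11.6% of its exon bases with *Mrpl47* on the opposite strand (mean 8.39 FPKM). The other 8 subunits tested had adjusted p from 0.408 (*Bcl7b*) to 0.900 (*Actb*): *Smarce1*, *Actb*, *Bcl7b*, *Bcl7c*, *Bcl11a*, *Dpf2*, *Ss18l1* and *Brd9*. For *Smarce1*, 20.03% of windows of 50 bases also occur in the pseudogene *Smarce1-ps1*, so its value is uncertain. Below the filter were *Smarcd3*, *Actl6b*, *Dpf1*, *Dpf3* and *Bcl11b*, known from muscle, neurons or T cells, which had group means of 0.033 (*Actl6b*) to 0.43 FPKM (*Dpf3*), and *Bicra*, with 1.02 ± 0.170 FPKM in control and 0.717 ± 0.171 in *Myh9*-deficient LSKs. *Smarcd3* shares 48.2% of its exon bases with *Chpf2* on the opposite strand (mean 5.90 FPKM).

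**Figure D3:**
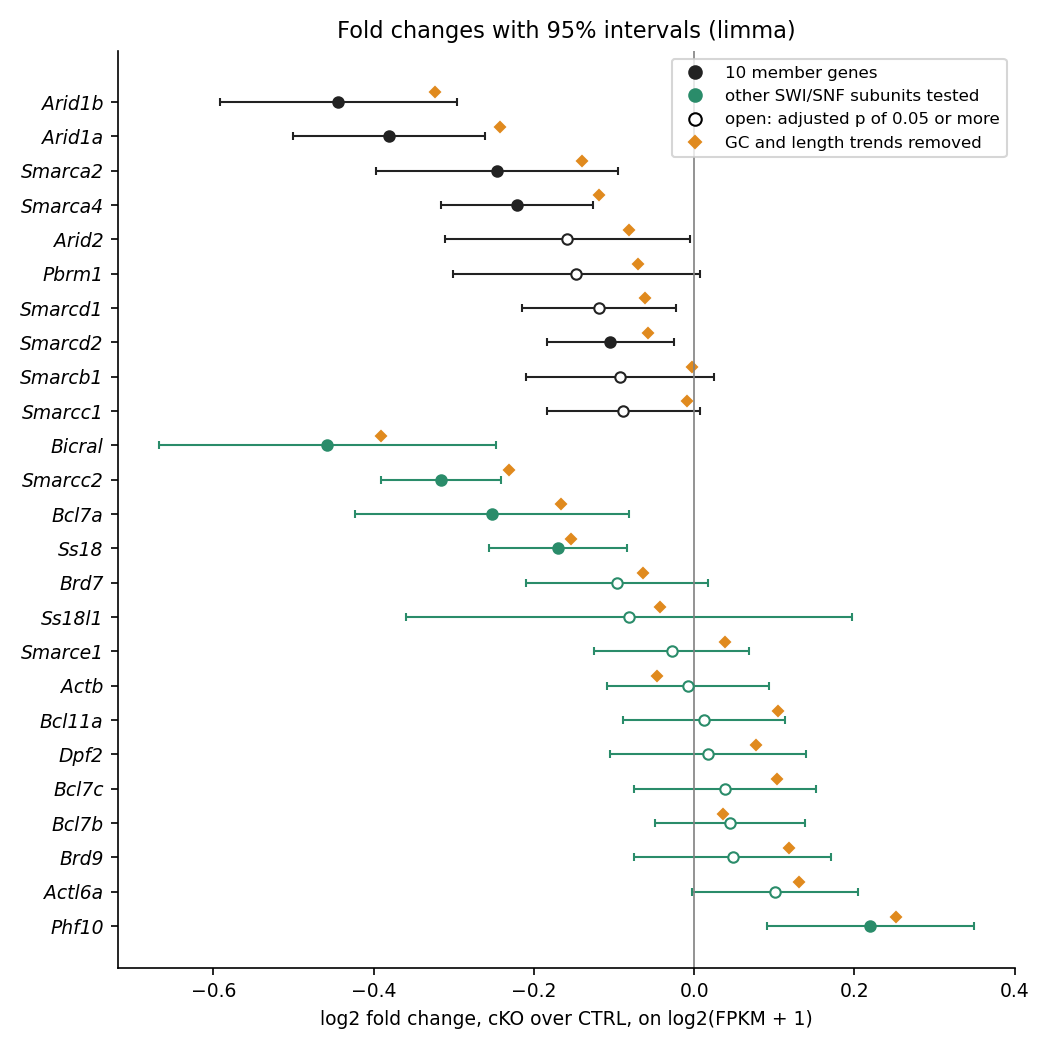
Log2 fold changes (cKO over CTRL, on log2(FPKM + 1)) of the 10 members and the 15 other SWI/SNF subunits tested, with 95% intervals; filled circles have an adjusted p under 0.05 and diamonds give the value after GC and length trends were taken out. All 10 members lie below 0 in both, from -0.44 to -0.088 and from -0.32 to -0.0030, where 51.7% and 50.3% of all genes tested lie below 0.

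Fold changes of all genes were related to gene length in these libraries. The median log2 fold change was 0.12 for genes under 1000 bases (1492 genes), 0.021 from 2000 to 4000 bases and -0.095 from 8000 bases upward (1490 genes), and the share called lower was 6.37%, 20.2% and 28.3% in the same order. The members are long: 5 of 10 have at least 8000 bases (*Arid1a*, *Arid1b*, *Arid2*, *Pbrm1* and *Smarca2*), and 3 of these 5 fell, with a median of -0.25. After GC and length trends were taken out, all 10 members still had values below 0, with a median of -0.076, and *Arid1a* and *Arid1b* remained called. *Smarcb1* (-0.0030) and *Smarcc1* (-0.0089) were then close to 0. Of all genes in that fit, 50.3% had values below 0, with a median of -0.0017. That fit called 18.2% of genes lower and 19.4% higher. With the trend with length alone removed, *Smarca4* passed as well (log2 fold change -0.15, adjusted p = 0.0189, limma). The part of gene length in the members' fall was not tested further.

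**Figure D4:**
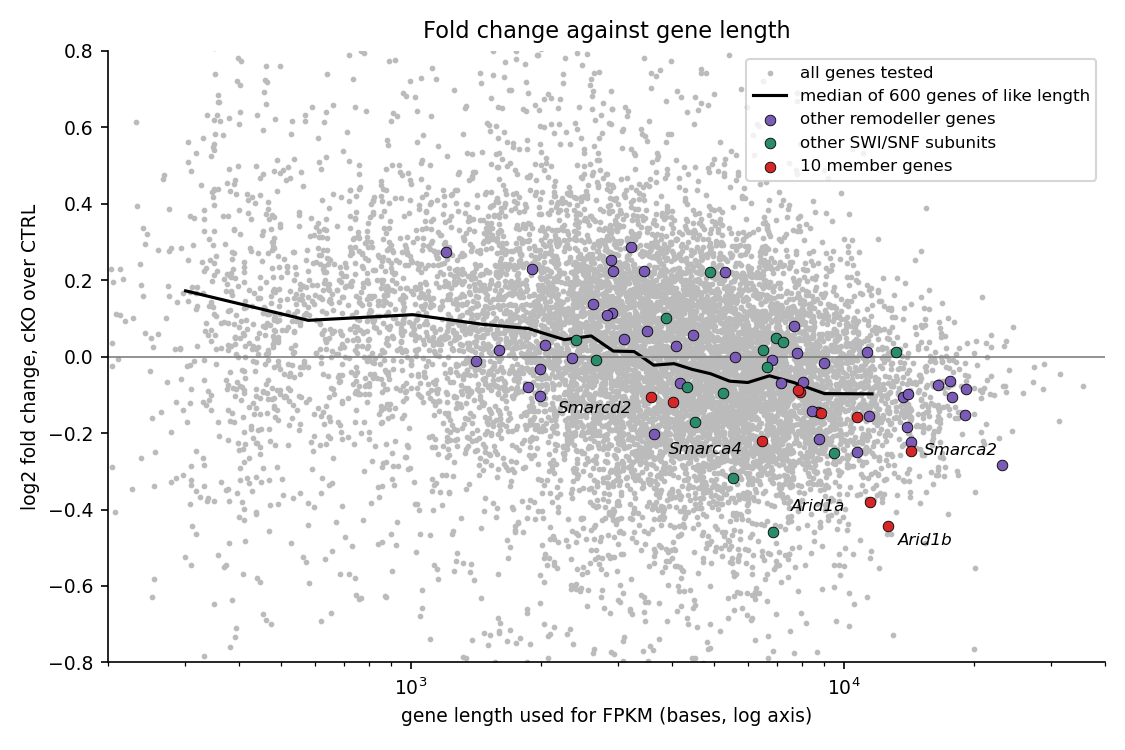
Log2 fold change (cKO over CTRL) against the gene length used for FPKM (bases, log axis) for all genes tested, with the members, the other SWI/SNF subunits and the other remodeller genes marked and the running median as a line; 407 genes lie beyond ±0.8 and 239 genes beyond the length limits. *Arid1a* (11476 bases) and *Arid1b* (12600 bases) lie well below the line, which falls with length.

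Genes of the other remodeller families were read from the same fit. Of 50 listed ISWI, CHD/NuRD and INO80/SRCAP genes, 46 were tested, 7 fell and 8 rose, which is no more than the 20.6% lower and 19.9% higher among all genes tested. Their median log2 fold change was -0.014. The 3 largest falls by log2 fold change were those of *Chd9* (-0.28, adjusted p = 0.0209, limma), *Baz2a* (-0.25, adjusted p = 0.00469) and *Chd2* (-0.22, adjusted p = 0.0205). On this scale, which understates changes of low genes, each was a smaller value than those of *Arid1a* and *Arid1b*. By the mean, however, *Chd9* fell by 27.8% (1.83 to 1.32 FPKM), more than *Arid1a* (25.6%) and less than *Arid1b* (30.2%). The 3 largest rises were those of *Mbd2* (0.29, adjusted p = 0.00167), *Tfpt* (0.27, adjusted p = 0.0111) and *Ruvbl2* (0.25, adjusted p = 3.05e-04). Split by length, 6 of the 18 tested genes of at least 8000 bases fell and none rose (median -0.12), while 1 of 19 under 4000 bases fell and 7 rose (median 0.066). Among all genes tested, 28.3% were called lower and 5.71% higher from 8000 bases upward, and below 4000 bases the share called higher was 23.4% to 32.8% and that called lower 6.37% to 20.2% by length class, so the split of the remodeller genes ran the same way as that of all genes. The members of at least 8000 bases had a median of -0.25, and whether they differ from remodeller genes of like length was not tested.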

How the data were processed

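RNA-seq was done on LSKs of 3 control and 3 *Myh9*-deficient samples, with libraries from a kit that does not mark strand and sequenced by a company. The submitters' processing notes name HISAT2 2.0.5 and mm10, and the counting program is not given in the sources used here. The authors deposited FPKM values with gene lengths. FPKM times length came out as whole multiples of 1 read for 100% of values above 0 and under 1000 reads (tolerance 0.01 read). There were 15208 to 15946 such values in a library. Larger values, which include most values of the members, were rounded to whole reads without this check. The reads so recovered were used for depth and for voom.

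The 11552 genes averaging 1 FPKM or more were tested on log2(FPKM + 1), a scale that understates changes of low genes, with limma 3.58.1 in R 4.3.3 (lmFit, eBayes with a trend), two-sided, with Benjamini-Hochberg adjustment over all genes tested. Shares were compared by exact permutation. The test was checked on simulated data. GENCODE M21 gave the annotation and transcripts, and 54495 of 54532 identifiers matched. GC content was known for 99.93% of genes tested, and trends were removed by loess (span 0.3). Replicate numbers did not pair the libraries (correlations of deviations of same-numbered libraries -0.026 to -0.0046).

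The members and lists were chosen with earlier results of these data known. Named were all members, *Myh9*, all other subunits, and at most 3 falls and 3 rises among the other remodellers. Software also included Python 3.11.15, pandas 2.3.3, numpy 2.4.6, scipy 1.17.1 and matplotlib 3.10.9.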

Additional observations from a re-analysis of the deposited data

How the results depend on the processing

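Of the alternative values for single genes, 409 kept their direction and side of the threshold, 35 lost the call, 7 gained it and 13 changed sign, none of them called under either setting. The members called lower numbered 5, but 2 after GC and length trends were taken out, 3 after the length trend alone, 3 without a filter on low values, 0 at more than 2-fold and 3 to 5 with 1 library left out (3 without CTRL replicate 1 or cKO replicate 3). No alternative called a member higher. The other subunits called lower numbered 4, but 2 at a mean of at least 5 FPKM (12 tested) and 0 at more than 2-fold, with 3 to 4 on leaving out a library. Those called higher numbered 1, but 0 without moderation, 2 with voom, 0 at more than 2-fold and 0 to 1 on leaving out a library (0 without cKO replicate 2 or 3). The other remodellers called lower numbered 7, but 4 at a mean of at least 5 FPKM, 4 without a filter, 4 with the replicate block, 0 at more than 2-fold and 3 to 6 on leaving out a library (3 without CTRL replicate 1, 4 without cKO replicate 1), and those called higher 8, but 0 at more than 2-fold. Calls over all genes moved too. Of 11552 genes, 2378 fell and 2295 rose in the main fit, 2102 fell after the length trend alone and 2044 with the replicate block. With 1 library left out, 1758 to 2065 fell and 1784 to 2043 rose. Falls were 2105 of 11544 with GC and length trends taken out and 1971 of 24337 without a filter. They were 1740 of 7169 at a mean of at least 5 FPKM. Rises were 1724 without moderation and 2725 with voom. The cause of these moves was not tested.

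The replicate block left 4 members called, with *Smarcd2* at an adjusted p of 0.0668 (limma), and 3 of the other subunits, and same-numbered libraries did not deviate together. *Smarce1* turned to 0.038 (GC and length trends taken out) and 0.041 (length trend alone), *Actb* to 0.0047 (median of ratios), 0.012 (voom) and between -0.038 and 0.033 on leaving out a library, *Bcl11a* to -0.0062 (TPM) and between -0.0094 and 0.029, *Dpf2* to -0.0029 (quantile), -0.0035 (TPM) and between -0.029 and 0.067, and *Ss18l1* to between -0.17 and 0.019 (log2 fold changes). The difference in *Smarcd1* share ranged from -0.46 to 0.046 points on leaving out a library, the latter without CTRL replicate 1. With 3 libraries a group and at least 575 reads per member and library, differences of the size seen for *Smarcb1* and *Smarcc1* were within the 95% intervals of no change.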
